A study of Mus musculus with 6 samples.

Results

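Interferon-stimulated genes were followed through 3 subsets of mouse natural killer (NK) cells, the lymphocytes that kill infected and transformed cells without rearranged antigen receptors. A list of 38 genes was chosen by function, as genes whose transcription type I interferon is known to induce, and every probe set of these genes on the array was read. Of the 38 genes, 36 were measured, out of 18193 genes in the whole table. Isg15, whose probe set carries several gene symbols, and Ifi44, for which no probe set was listed, were not analysed here. The 36 genes were covered by 56 probe sets, 14 of the genes by more than 1, and each gene was represented by its brightest probe set.

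All samples came from the spleens of RAG-/- mice, which lack mature T and B cells. No age, strain background or treatment is given in the labels. NK1.1+ cells had been separated by flow cytometry into a CD27+CD11b- subset, a CD27+CD11b+ subset and a CD27-CD11b+ subset, which are usually placed in this order from less to more mature. RNA of each subset, prepared with a Qiagen RNeasy micro kit, was measured on 2 Affymetrix mouse 430 2.0 arrays. The labels do not say that the 2 samples of a subset came from separate animals, so the p-values rest on sample-to-sample spread that may be technical in part or in full. With 6 arrays in all, the number of arrays limits the precision. As the samples are bulk RNA, fewer cells with a transcript and less transcript per cell cannot be told apart.

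Type I interferons bind the receptor made of IFNAR1 and IFNAR2, which signals through the kinases JAK1 and TYK2 to a transcription factor complex that includes STAT2 and IRF9. This complex binds the interferon-stimulated response element (ISRE) in target promoters, and the proteins made in response sense foreign nucleic acid, degrade or withhold RNA from translation, block virus entry and assembly, and limit the signal itself. Interferon gamma signals through its own receptor to a separate promoter element (GAS), and many genes respond to both. NK cells respond to type I interferon and are themselves a main source of interferon gamma.

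Values are log2 expression, and each pair of values below gives replicate 1 and then replicate 2 of a subset. Differences between subsets are log2 differences ± the standard error (SE) of a limma fit over all 6 arrays, with p-values adjusted over all 18193 genes by the Benjamini-Hochberg method and a call made at an adjusted p under 0.05. The 95th percentile of genes typical of other tissues, 6.63, was taken as the background level, because the table holds no detection calls. By their mean over 6 arrays, 27 of the 36 interferon-stimulated genes and 7872 of all genes lay above it.

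Some features of the arrays bear on the results. The sort protocol recorded for CD27-CD11b+ replicate 1 names the CD27+CD11b- gate, against its title, by which it was grouped. Its Cd27 value was 6.96 and its Itgam (CD11b) value 9.93, beside 6.47 and 9.44 in the other CD27-CD11b+ array. In the CD27+CD11b- arrays Cd27 was 8.78 and 8.03, and Itgam was 6.37 and 5.88. Across the subsets, 3 unnamed probe sets divided the arrays into 3 high arrays (replicate 2 of CD27+CD11b-, replicate 2 of CD27+CD11b+ and replicate 1 of CD27-CD11b+) and 3 low arrays. In the same 3 high arrays the mean of 19 monocyte and macrophage markers lay between 7.50 and 7.84, against 5.98 to 6.91 in the low arrays. Each subset held 1 array of each kind, so each comparison could also be fitted with the division as a block. That block was read from these data, and its adjusted p-values may therefore be too small. The 15 NK cell markers measured were all above background, with array means from 11.36 to 12.23. Near background in every subset were 5 of 8 T cell markers, Cd3e among them, 5 of 7 B cell markers, with Cd79a, and 5 of 9 plasmacytoid dendritic cell markers, with Siglech. Others were above it: Cd3d went from 8.38 and 7.45 in CD27+CD11b- to 5.55 and 5.52 in CD27-CD11b+, Cd22 from 8.11 and 8.03 to 5.85 and 5.86, Ighm lay between 10.05 and 11.07 and Tcf4 between 7.74 and 8.74. The part of these transcripts in the results below was not tested.

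In CD27-CD11b+ cells 5 of the 36 genes were lower than in CD27+CD11b- cells and 31 did not pass the test. The 5 were Ifit1, Ifit3, Oas1a, Oas3 and Rtp4. Over all genes 1.15% were called lower and 2.24% higher in this comparison, and 0 of the 36 were called higher. The median difference of the 36 genes was -0.23, against -0.01 for all genes, and 25 of them were below 0, a sign that 50.8% of all genes shared. At an unadjusted p under 0.05, 12 of the 36 were lower and 3 higher, where 6.39% and 12.5% of all genes were.

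**Figure D1:**
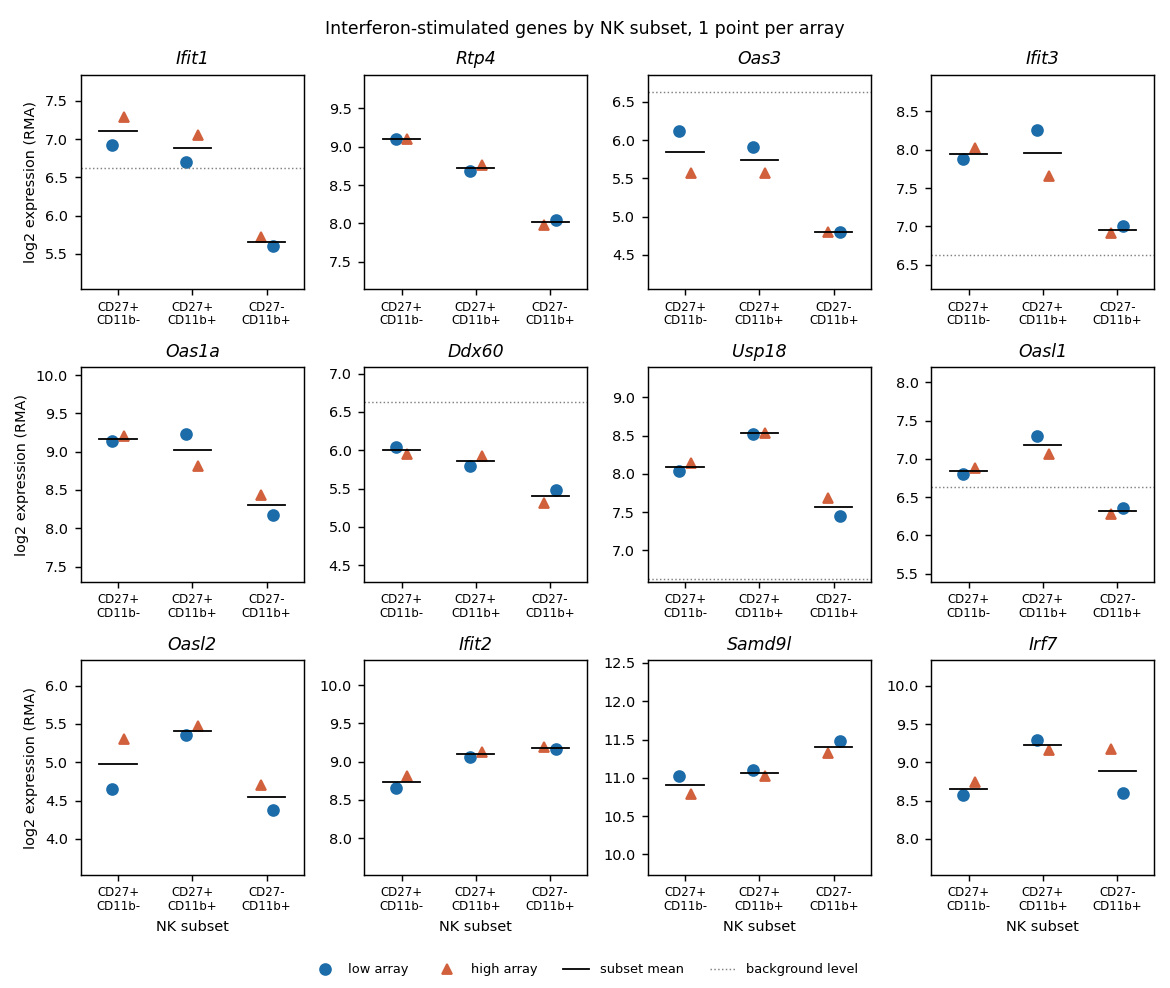
Log2 expression (vertical axis, spanning the same width in each panel) of 12 interferon-stimulated genes in the 3 NK subsets (horizontal axis). Points are single arrays, circles for low and triangles for high arrays of the division described in the text, bars are means of 2 arrays and the dotted line is the background level of 6.63. Ifit1, Rtp4, Oas3, Ifit3, Oas1a, Ddx60, Usp18 and Oasl1 were lowest in both CD27-CD11b+ arrays, while Ifit2 and Samd9l were highest there.

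The IFIT proteins bind viral RNA that lacks the cap modifications of host messengers. Ifit1, which recognises incompletely methylated caps, was 6.93 and 7.28 in CD27+CD11b-, 6.70 and 7.06 in CD27+CD11b+ and 5.72 and 5.60 in CD27-CD11b+. Both CD27-CD11b+ arrays lay below the background level and all 4 others above it. The fall from CD27+CD11b- to CD27-CD11b+ was a difference of -1.44 ± 0.19 (adjusted p = 0.00927), or at least 1.39-fold when the low side is set at the background level. Within the low arrays the difference was -1.32 and within the high arrays -1.56.

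Ifit3, a partner that stabilises IFIT1 on RNA in human cells, gave 7.88 and 8.02, then 8.25 and 7.66, then 6.91 and 7.00 in the same order of subsets. The CD27-CD11b+ arrays again lay under the 4 others, which overlapped each other. Its difference between the outer subsets was -0.99 ± 0.21 (adjusted p = 0.0454), a level 1.99-fold lower in CD27-CD11b+. It was -0.87 within the low and -1.11 within the high arrays.

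Ifit2, an RNA-binding relative from the same gene cluster, was picked for mention after its values were seen. It went 8.66 and 8.81, 9.06 and 9.13, 9.18 and 9.16. Both CD27-CD11b+ arrays were above the other 4, opposite to Ifit1 and Ifit3, but the difference of 0.44 ± 0.14 between the outer subsets did not pass the test (adjusted p = 0.156).

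The OAS enzymes make the 2'-5' linked adenylate that switches on RNase L. Oas1a read 9.15 and 9.20 in CD27+CD11b-, 9.23 and 8.81 in CD27+CD11b+ and 8.43 and 8.17 in CD27-CD11b+. The CD27-CD11b+ arrays were the lowest, and the other subsets overlapped. The outer difference was -0.87 ± 0.19 (adjusted p = 0.0489), 1.83-fold lower in CD27-CD11b+, with -0.97 within the low and -0.76 within the high arrays.

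Oas3, which makes longer adenylate chains, was below the background level on every array, at 6.12 and 5.57, 5.91 and 5.57, and 4.80 and 4.79. The CD27-CD11b+ arrays were the lowest and no fold is given at these levels. The outer difference of -1.05 ± 0.21 passed (adjusted p = 0.0405), and was -1.33 within the low and -0.78 within the high arrays.

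Oasl1 and Oasl2 belong to the OAS-like proteins, of which mouse OASL1 limits translation of Irf7. Oasl1 was 6.81 and 6.89, 7.30 and 7.07, and 6.28 and 6.36, with both CD27-CD11b+ arrays the lowest and CD27+CD11b+ the highest. Oasl2, below background throughout, was 4.65 and 5.30, 5.35 and 5.48, and 4.70 and 4.38, so that the outer subsets overlapped. Neither was called in any comparison of the unblocked fit.

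Rtp4, a chaperone that helps receptors reach the cell surface, was 9.10 and 9.11 in CD27+CD11b-, 8.68 and 8.77 in CD27+CD11b+ and 7.98 and 8.05 in CD27-CD11b+. No subset overlapped another, and the level was lower at each position of the order. The outer difference of -1.09 ± 0.14 (adjusted p = 0.00863) made it 2.13-fold lower in CD27-CD11b+. It measured -1.05 within the low and -1.13 within the high arrays.

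With each of the 45037 probe sets tested on its own, 2 of the 56 probe sets of these genes were called in the outer comparison, those of Ifit1 and Rtp4, where 0.639% of all probe sets were.

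Leaving out either CD27+CD11b- array lowered the count of 5 calls, as did leaving out either CD27-CD11b+ array. Without replicate 1, whose protocol and title disagree, 0 of the 36 genes were called, while calls over all genes went from 617 to 84. The differences were then -1.50 for Ifit1 (adjusted p = 0.0877), -0.94 for Ifit3 (0.260), -1.001 for Oas1a (0.171), -1.05 for Oas3 (0.226) and -1.06 for Rtp4 (0.0897). Without replicate 2, only Rtp4 of the 36 was called (adjusted p = 0.0468), and Ifit1 differed by -1.39 (0.0647), with 230 calls over all genes. Leaving out CD27+CD11b- replicate 1 left 2 calls among the 36 and 236 over all genes, and leaving out its replicate 2 left 3 and 296.

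**Figure D2:**
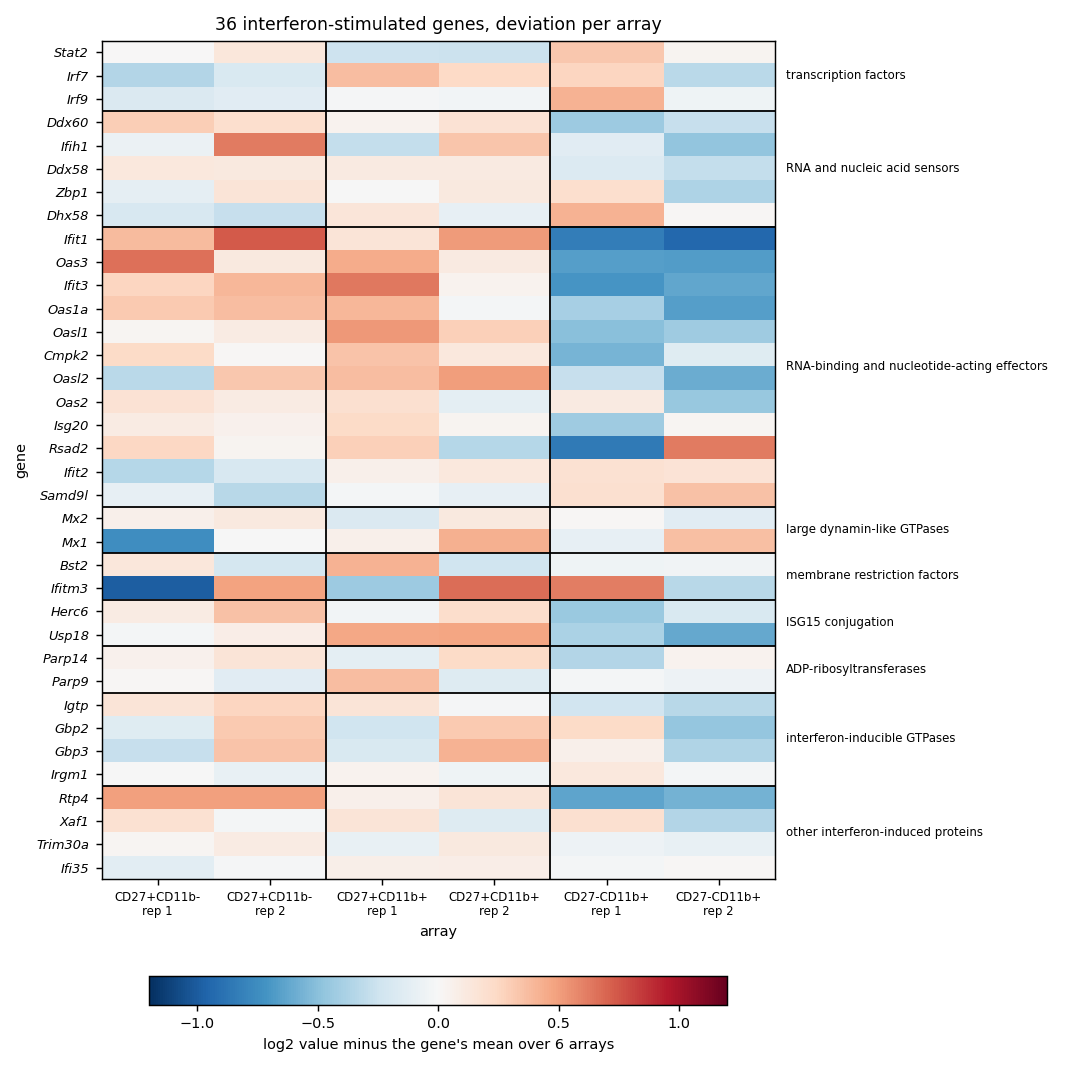
Deviation of each of the 36 genes (rows, grouped by role) from its own mean over 6 arrays, in log2 units, for each array (columns). Red is above and blue below the gene's mean. In both CD27-CD11b+ columns Ifit1, Ifit3, Oas3, Oas1a and Rtp4 are blue, while Ifitm3, Gbp2 and Gbp3 follow the high and low arrays and not the subsets.

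Promoters of the Ifit and Oas genes are shown because 4 of the 5 genes called lower belong to these families. Ifit2 is included as a relative whose difference had the opposite sign but was not called. The stretches are the 200 bases before the annotated start of transcription, read from RefSeq on GRCm38.p6 and written along the strand of the gene. Capitals mark the ISRE core, searched as TTTC, any 2 bases and TTTC again, or on the other strand as GAAA, any 2 bases and GAAA. Overlapping matches run together, as in Oas1a.

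Ifit1, chr19:34640689-34640888, plus strand: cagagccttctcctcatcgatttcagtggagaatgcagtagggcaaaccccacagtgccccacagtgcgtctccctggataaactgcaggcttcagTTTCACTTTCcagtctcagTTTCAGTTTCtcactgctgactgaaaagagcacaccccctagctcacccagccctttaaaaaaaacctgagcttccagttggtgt

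Ifit3, chr19:34583329-34583528, plus strand: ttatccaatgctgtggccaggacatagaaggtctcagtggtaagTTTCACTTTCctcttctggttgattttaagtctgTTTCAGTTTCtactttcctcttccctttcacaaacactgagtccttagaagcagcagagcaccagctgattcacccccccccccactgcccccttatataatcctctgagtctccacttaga

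Oas1a, chr5:120907526-120907725, minus strand: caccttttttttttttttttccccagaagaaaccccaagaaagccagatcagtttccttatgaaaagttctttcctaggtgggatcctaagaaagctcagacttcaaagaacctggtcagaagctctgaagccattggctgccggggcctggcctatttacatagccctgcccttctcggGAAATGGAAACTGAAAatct

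Oas3, chr5:120777660-120777859, minus strand: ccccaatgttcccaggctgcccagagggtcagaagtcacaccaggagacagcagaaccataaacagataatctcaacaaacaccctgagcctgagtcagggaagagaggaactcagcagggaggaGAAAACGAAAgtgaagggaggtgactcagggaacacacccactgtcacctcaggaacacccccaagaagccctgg

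Ifit2, first start, chr19:34550494-34550693, plus strand: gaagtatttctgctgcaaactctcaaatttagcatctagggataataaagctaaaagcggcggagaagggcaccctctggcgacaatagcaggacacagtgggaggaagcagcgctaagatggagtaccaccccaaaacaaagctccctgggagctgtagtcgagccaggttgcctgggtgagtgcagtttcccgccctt

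Ifit2, second start, chr19:34550888-34551087, plus strand: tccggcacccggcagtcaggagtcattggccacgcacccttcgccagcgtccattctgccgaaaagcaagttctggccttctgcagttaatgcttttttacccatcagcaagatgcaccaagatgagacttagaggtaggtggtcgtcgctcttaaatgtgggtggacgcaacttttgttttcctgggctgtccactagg

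Matches began 104 and 85 bases before the start in Ifit1, 156 and 122 in Ifit3, 75 in Oas3, and 20 and 14 in Oas1a. In the windows of Ifit2 there was no match to these letters. Over the 250 bases before the start, 29 of the 38 listed genes had a RefSeq promoter entry and 14 of them, 48.3%, held the ISRE core in at least 1 window, as did 3.46% of 27025 genes. The interferon gamma element GAS, searched as TTCNNNGAA, was found in 5 of the 29, 17.2%, and in 8.13% of all genes. Of the 13 measured genes with both CD27-CD11b+ arrays below the other 4, 11 had an entry and 6 held the ISRE core. Among the 21 with overlapping arrays, 14 had an entry and 7 held it. Such a match describes the sequence and does not show binding.

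The 2 steps of the order were then compared. From CD27+CD11b- to CD27+CD11b+ 0 of the 36 genes passed, and 0.121% of all genes did. At an unadjusted p under 0.05, 3 were higher (Irf7, Ifit2 and Usp18) and 1 lower (Rtp4), where 1.84% and 1.96% of all genes were, and the median difference was 0.02, with 17 of 36 below 0. From CD27+CD11b+ to CD27-CD11b+ 0 passed as well, where 0.297% of all genes did, but the median was -0.21, against 0.02 for all genes. In that step 29 of 36 genes were below 0, compared with 46.9% of all genes, and 12 were lower and 1 higher at an unadjusted p under 0.05, compared with 3.44% and 7.7%. The comparisons share arrays, so their values stand side by side and are no independent support for each other.

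In the first step the arrays of the subsets did not overlap in 9 genes that were higher and 4 that were lower, against 14.7% and 15.6% of all genes. In the second step both CD27-CD11b+ arrays were below both CD27+CD11b+ arrays in 15 of the 36 genes and above them in 3, against 17.1% and 22.8% of all genes. For the outer subsets these counts were 17 and 4, against 24.3% and 26.9%. Both CD27-CD11b+ arrays lay below all 4 others in 13 of 36, against 11.7% of all genes, and above all 4 others in 2, Ifit2 and Samd9l, against 17.3%. Of the genes above background in their 6-array mean, 10 of the 27 interferon-stimulated genes and 586 of the 7872 genes in all lay below the 4 others, and 2 of the 27 and 2396 of the 7872 above them. The median of those 27 genes for the second step was -0.21, where that of the 7872 genes was 0.15.

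With the array division as a block, 6 of the 36 genes were called lower in the second step (Ifit1, Ifit3, Oas3, Oasl1, Oasl2 and Usp18), where 0.731% of all genes were, and 6 in the outer comparison, where 2.83% were. Ddx60 was the addition to the 5 outer calls. The difference between the steps was itself not called for any of the 36 in limma's test, with or without the block, and at an unadjusted p under 0.05 it was lower in 6 and higher in 1, where 1.15% and 1.85% of all genes were. It was called for 0.0055% of all genes. A test over all 3 subsets at once called 2 of the 36, Ifit1 (adjusted p = 0.0207) and Rtp4 (adjusted p = 0.025), where 1.35% of all genes passed, and 7 with the block, where 4.8% did.

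**Figure D3:**
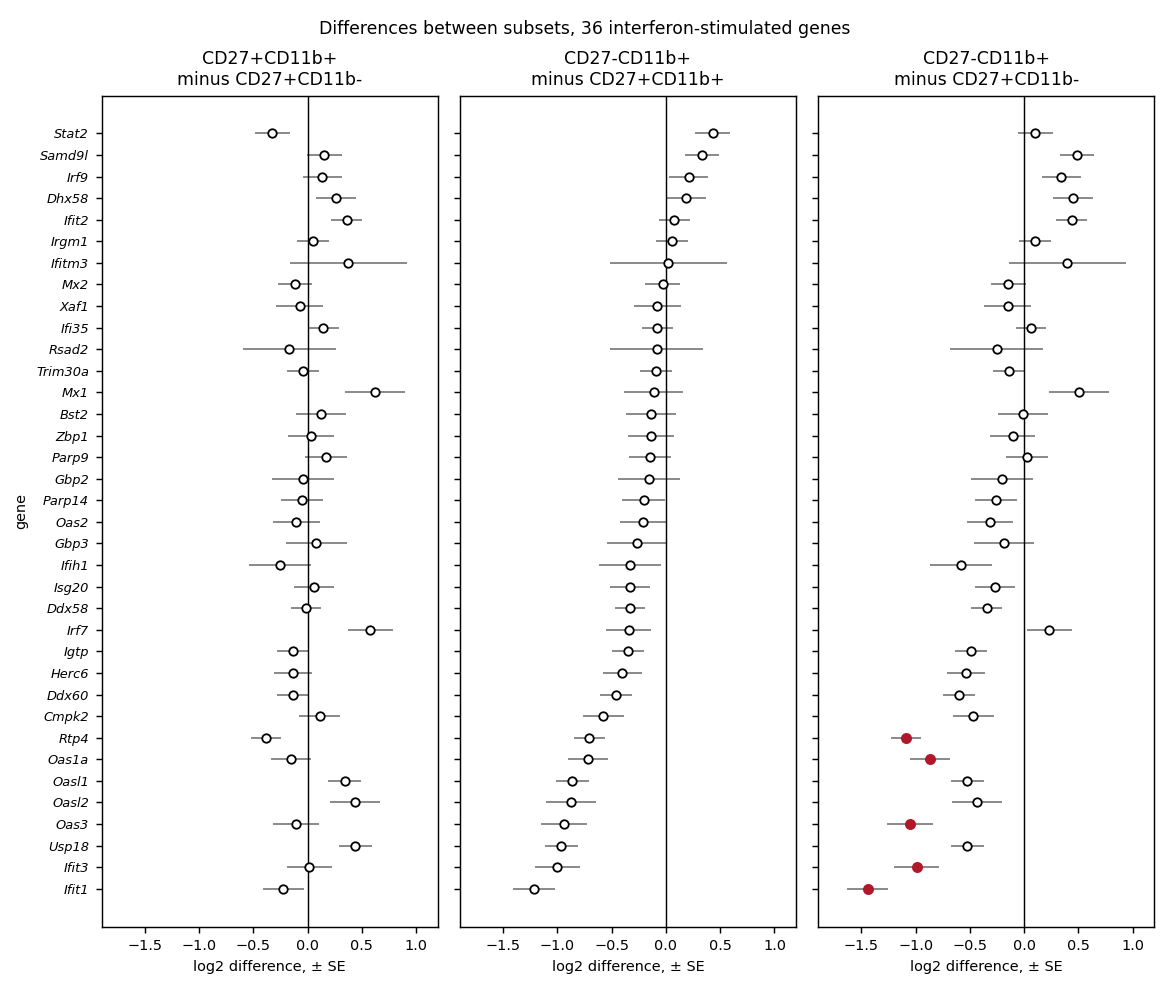
Log2 difference ± SE (horizontal axis) of each of the 36 genes (vertical axis) for the 3 pairs of subsets, ordered by the middle panel. Filled points passed an adjusted p of 0.05 in the unblocked fit. The first panel scatters around a median of 0.02, the middle one around -0.21, and the 5 filled points are all in the third.

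The genes of ISG15 conjugation were not called in the unblocked fit. Usp18, the protease that removes ISG15 and restrains the interferon receptor, was 8.04 and 8.15, 8.53 and 8.53, and 7.68 and 7.45. CD27+CD11b+ arrays were the highest and CD27-CD11b+ arrays the lowest, with no overlap. The second step measured -0.97 ± 0.15 (adjusted p = 0.0606, and 0.0219 with the block), -1.08 within the low and -0.85 within the high arrays.

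Herc6, the mouse ligase for ISG15, was 8.18 and 8.43, 8.05 and 8.30, and 7.63 and 7.90. Both CD27-CD11b+ arrays were the lowest, but the outer difference of -0.54 ± 0.18 did not pass (adjusted p = 0.156).

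None of the 3 transcription factors passed in any of the 3 comparisons, with or without the block. Irf7, the factor that amplifies interferon transcription, was 8.57 and 8.74, 9.29 and 9.17, and 9.18 and 8.60. Both CD27+CD11b+ arrays were above both CD27+CD11b- arrays, and 1 CD27-CD11b+ array lay among the former and 1 among the latter. Stat2 and Irf9, which encode subunits of the complex that binds the ISRE, had outer differences of 0.10 and 0.34, and neither passed.

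Among the 5 nucleic acid sensors, Ifih1, which encodes the RNA sensor MDA5, was 8.85 and 9.54, 8.63 and 9.25, and 8.78 and 8.44. In each subset the high array was above the low one. CD27+CD11b+ overlapped both other subsets, while both CD27-CD11b+ arrays were below both CD27+CD11b- arrays, and the outer difference of -0.58 ± 0.29 did not pass (adjusted p = 0.318).

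Ddx60, a helicase linked to RIG-I signalling, was 6.04 and 5.95, 5.79 and 5.92, and 5.32 and 5.48, below background on every array. Its outer difference of -0.60 ± 0.15 was called with the block alone (adjusted p = 0.0457, and 0.0753 without it). Ddx58, which encodes RIG-I, was lower in both CD27-CD11b+ arrays (9.30 and 9.18) than in the other 4 (9.57 to 9.59) and was not called. A second, dimmer Ddx58 probe set above background had the opposite sign in the outer comparison, at 0.14.

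Other effectors varied without a call by subset. Cmpk2, a mitochondrial nucleotide kinase encoded next to Rsad2, was 7.35 and 7.14, 7.46 and 7.25, and 6.57 and 6.98, with the CD27-CD11b+ arrays the lowest. Samd9l, a growth-restraining antiviral factor, was 11.03 and 10.79, 11.10 and 11.02, and 11.32 and 11.48, with the CD27-CD11b+ arrays the highest. The outer differences were -0.47 ± 0.19 (adjusted p = 0.232) and 0.49 ± 0.16 (adjusted p = 0.145).

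Mx1, a dynamin-like GTPase that traps viral nucleoproteins, was 6.71 and 7.44, 7.51 and 7.88, and 7.34 and 7.81. Both CD27+CD11b+ arrays were above both CD27+CD11b- arrays, by 0.62 ± 0.27 in the means, which was not called. The CD27-CD11b+ arrays overlapped both other subsets. Rsad2, which encodes viperin and was chosen for mention after its values were seen, read 8.56 and 10.03 in the 2 CD27-CD11b+ arrays. These were the lowest and the highest of the 6 arrays, with the other 4 between 9.06 and 9.70. All 3 high arrays of the division were below all 3 low ones for Rsad2. Its high minus low difference of -0.77 ± 0.22 was not called (adjusted p = 0.176).

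A few members followed the array division and not the subsets. Ifitm3, a membrane protein that blocks virus fusion, was 4.88 and 6.35, 5.43 and 6.55, and 6.48 and 5.53, below background throughout. All 3 high arrays were above all 3 low ones. The high minus low difference was 1.18 ± 0.14 (adjusted p = 0.00726), the only call among the 36 genes, where 1.33% of all genes were called. At an unadjusted p under 0.05, 7 of the 36 were higher and 3 lower in the high arrays, where 8.67% and 4.12% of all genes were. The monocyte and macrophage markers moved the same way: 12 of 19 were called higher in the high arrays, with a median difference of 1.35. So were 5 of 9 neutrophil markers, with a median of 0.84, and 4 of 9 conventional dendritic cell markers, with a median of 0.62. Of 25 cell cycle genes 5 were called lower there, with a median of -0.82. Of 7 erythroid markers, 5 of them near background in every subset, 2 were called lower there, with a median of -0.31. The part of these groups in the Ifitm3 difference was not tested.

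The interferon-inducible GTPases, which act on the vacuoles of intracellular pathogens, held no call. Gbp2 ranged from 9.16 to 9.93 and Gbp3 from 9.96 to 10.74, each with its high array above its low array in every subset. Igtp was 9.87 and 9.77 in CD27-CD11b+ and 10.09 to 10.36 in the other arrays. Irgm1 stayed between 8.24 and 8.46. Among the remaining members, Oas2, Mx2 and Stat2 had no subset mean above background, nor did Bst2, and Dhx58, Zbp1, Isg20, Parp9, Parp14, Ifi35, Xaf1 and Trim30a were not called in any comparison.

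A second list of 70 interferon-induced genes outside the 38 was read for comparison, of which 58 were measured. From CD27+CD11b- to CD27-CD11b+ 5 of them fell, 1 rose and 52 did not pass, where 1.15% of all genes fell and 2.24% rose. Their median difference was -0.01. Parp12, an antiviral ADP-ribosyltransferase, fell by 1.78 on the log2 scale and lay below background in every subset. The GTPase Gbp6 fell by 1.24, the PD-1 ligand Cd274 by 1.09, Ly6e, a surface protein of the Ly6 family, by 1.08 and the ubiquitin ligase Rnf213 by 0.97. Znfx1, an RNA helicase and sensor, rose by 0.88.

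The values of Ly6e were 11.78 and 11.57, 11.86 and 11.47, and 10.64 and 10.54, a separation of both CD27-CD11b+ arrays from all others like that of Ifit1. Of the 58 genes, 17 had both CD27-CD11b+ arrays below all 4 others and 5 above them, against 11.7% and 17.3% of all genes. In the second step the median of the 58 was -0.12, against 0.02 for all genes. There 38 of them were below 0, compared with 46.9% of all genes. In that step 0 of the 58 passed, where 0.297% of all genes did. With the division as a block, where 0.731% of all genes were called lower, 7 of the 58 were lower. Among these, Cxcl10, a chemokine, was 7.61 and 9.03, 7.86 and 8.65, and 7.19 and 6.09, so that its high arrays were also above its low ones in every subset.

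**Figure D4:**
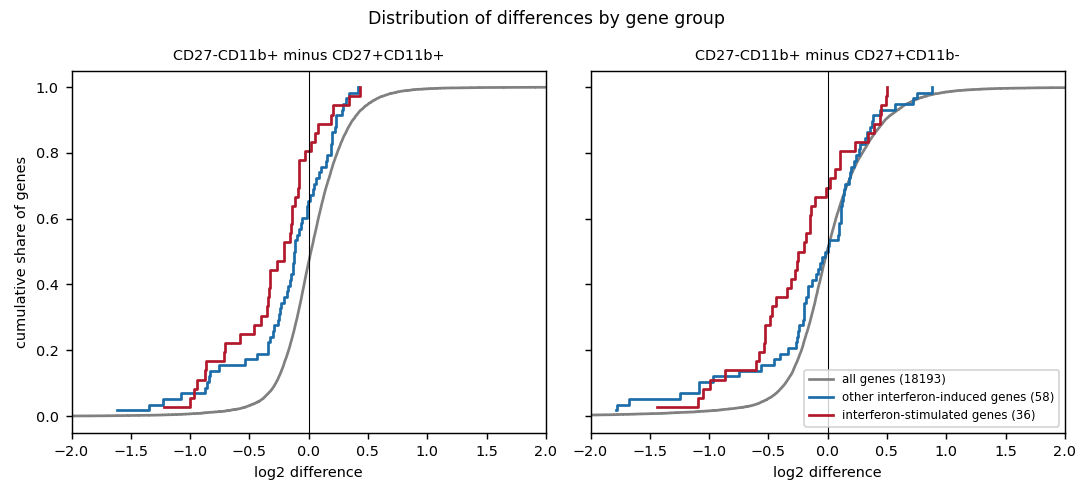
Cumulative share of genes (vertical axis) at or below a given log2 difference (horizontal axis) for the second step and for the outer comparison, for the 36 interferon-stimulated genes, the 58 other interferon-induced genes and all 18193 genes. The line of the 36 genes lies to the left of that of all genes over most of its length in both panels, with medians of -0.21 and -0.23. The line of the 58 genes crosses 0 near its median of -0.01 in the outer comparison.

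Of 23 receptor and signalling genes 22 were measured. In the outer comparison 2 rose, 1 fell and 19 did not pass, where 2.24% of all genes rose and 1.15% fell. The kinase Tyk2 rose by 0.89, from 9.74 and 9.75 to 10.63 and 10.64. Irf8, a transcription factor shared with myeloid cells, rose by 1.12, and Socs3, a feedback inhibitor of JAK signalling, fell by 1.18. The receptor chains Ifnar1 and Ifnar2 differed by -0.12 and -0.17 and Ifngr1 by 0.49, and none of these passed. Among 10 interferon genes measured, 9 were near background and Ifng, which encodes interferon gamma, was between 11.91 and 12.81.

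Other gene groups were read in the same order of subsets, without a test of their means. Averaged over 25 cell cycle genes the level was 9.01 and 7.97, 8.57 and 7.55, and 7.26 and 7.43. The mean of the 15 NK cell markers was 11.50 and 11.36, 11.94 and 11.82, and 12.23 and 12.11. Plasmacytoid dendritic cells are a main source of type I interferon, and the mean of 9 of their markers, 5 of them near background in every subset, was 6.24 and 6.25 in CD27+CD11b- and 6.13 and 5.99 in CD27-CD11b+. The subset mean of 61 genes of other tissues was 4.85 and 4.71 in the same subsets. The part of these groups in the differences of the interferon-stimulated genes was not tested.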

How the data were processed

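Per the labels, NK1.1+ spleen cells of RAG-/- mice were sorted into 3 subsets with 2 arrays each. The authors deposited log2 values, for which the submitters' processing notes name RMA. Its version and the probe set definition are not stated there or in the labels. RMA subtracts background, gives all arrays the same distribution and summarises probes. A change shared by most genes is thereby removed, and dim genes show compressed differences. Array medians were 5.26 to 5.36.

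After 64 controls were left out, 45037 probe sets remained, 34945 with 1 symbol in the platform annotation, 932 with several and 9160 with none. Genes with more than 1 probe set took the one with the highest mean. The background level was the 95th percentile of 61 measured genes of other tissues. limma 3.58.1 in R 4.3.3 was fitted with 1 mean per subset (residual degrees of freedom 3, prior 4.93). The fit was also run on simulated data with independent noise and no array division, which cannot show how it behaves on these arrays. Promoter sequences came from RefSeq.

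The genes written out array by array were those called in any comparison, blocked or not, and the 12 above background with the largest range of subset means. Members, lists, tests and alternatives were chosen with earlier results of these data known. Alternatives were the replicate number or the array division as a block, leaving out each array, averaging probe sets, dropping dim genes, adding 32 to linear values, centring on genes above background, another variance prior and fitting 4 arrays only.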

Additional observations from a re-analysis of the deposited data

How the results depend on the processing

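The outer count of 5 genes became 3 with only genes above background tested, which leaves Ifit1 and Oas3 out, 2 with 32 added to linear values, and 0 to 5 with single arrays left out, while that of all genes, 617, became 580, 367 and 84 to 635. The second step's count of 0 became 6 with the array division as a block, 2 with arrays centred on genes above background and 2 with a trended, robust prior, while that of all genes went from 54 to 296, 69 and 101. The test over all subsets called 2 genes (1.35% of all genes), Ifit1 and Rtp4, which became 7, 1 with 32 added and 5 with the other prior, and 0 to 3 with single arrays left out, while that of all genes, 246, became 874, 55, 386 and 53 to 237. The single call by array division became 0 with dim genes dropped, which leaves Ifitm3 out, 0 with 32 added and 3 with the other prior. The count over all genes, 242, became 123, 1 and 289 in the same order. The causes of the other changes were not tested.

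Centring moved the median of all genes by -0.13 in the second step and -0.17 in the outer comparison, and that of the 36 genes to -0.34 and -0.40. It turned the outer calls over all genes from 408 higher and 209 lower to 213 and 352. With single arrays left out, the medians of the 36 genes ran from -0.034 to 0.072 in the first step, -0.38 to -0.15 in the second and -0.33 to -0.10 in the outer comparison. Of the results for single genes, 407 stayed on their side of the threshold, 12 gained a call, 19 lost one and 0 changed direction with a call. The 407 include changes of sign in differences that were not called. The outer difference of Irf7, for example, ranged from -0.06 to 0.52 over the alternatives. Over its alternatives the outer adjusted p ranged from 0.00123 to 0.0877 for Ifit1, 0.0039 to 0.0897 for Rtp4, 0.0179 to 0.260 for Ifit3, 0.0267 to 0.173 for Oas1a and 0.00938 to 0.226 for Oas3.

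The replicate numbers of the titles were not taken to pair the samples, whose same-numbered deviations correlated at 0.62, -0.25 and -0.14 between subsets. With the replicate number as a block, 0 genes were called in either step, 4 in the outer comparison and 2 over all subsets, beside 760 and 253 of all genes in the last 2.

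Of the 8 further probe sets above background, 6 had the sign of the one used in the outer comparison, and 5 in each step. None of the 8 belonged to Ifit1, Ifit3, Oas1a, Oas3 or Rtp4, so they give no check on the outer calls. Oas3, Oasl2, Ddx60 and Ifitm3 were below background, where RMA compresses differences.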
